A study of Mus musculus with 3 samples.

Results

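Chemokines of the CC and CXC families were followed across primary mouse peritoneal macrophages in 3 conditions. The 10 genes were chosen by symbol: Ccl2, Ccl3, Ccl4, Ccl5, Ccl7, Cxcl2, Cxcl5, Cxcl10, Cxcl13 and Pf4. Of these, 8 had a row among the 20574 gene symbols, and Ccl4 and Cxcl2 were not analysed here. RNA was sequenced from macrophages kept for 5 h with apoptotic cells in 5-fold excess, from macrophages given LPS at 100 ng/ml for 5 h, and from untreated macrophages. LPS, a lipid of the outer membrane of bacteria, is a standard inflammatory stimulus. All 3 are labelled wild type and were grown in DMEM, and apoptotic cells that were not taken up were rinsed off before harvest. The labels give no strain, sex or age of mouse, no number of pooled animals and no source of the apoptotic cells. They also give no time for the untreated cells, so treatment cannot be told apart from time in culture. Each condition has 1 library, so every difference is between libraries and has no p-value.

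Chemokines are small secreted proteins that draw leukocytes along a gradient by binding receptors on their surface. Most CC chemokines act on monocytes, macrophages and T cells. CXC chemokines with a glutamate, leucine and arginine before the paired cysteines draw neutrophils, and others draw lymphocytes. Macrophages are a main source of these proteins when they meet bacterial products, and the uptake of dying cells is known for limiting inflammatory output.

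Values are FPKM (fragments counted relative to transcript length and library depth), so levels of different genes can be set side by side. The libraries summed to 197222 FPKM with apoptotic cells, 200224 with LPS and 199881 without treatment. Depth is not stated. From the spacing of the lowest values, 1 FPKM on 2 kb of effective length was worth about 6.56, 5.71 and 6.78 reads in the same order. Effective length is the transcript less 300, 150 and 225 bases, so 1 FPKM on a short transcript stands for far fewer reads. The reads and intervals given below rest on that estimate and cover counting error only. A listed 0 can be a failed estimate: where a gene was above 0 in the other two libraries, its value was 0 in 18.6% of cases with apoptotic cells, in 21.9% with LPS and in 38.6% without treatment. A 0 is therefore given as listed and enters no ratio. Of the 7 macrophage markers looked up, 3 had a row. Csf1r, the receptor for macrophage growth factor, was listed at 185 FPKM with apoptotic cells, 0 with LPS and 56.3 without treatment, and Cd14, a co-receptor for LPS, at 555, 0 and 303 FPKM. Mrc1, the mannose receptor gene, was listed at 0.950, 1.15 and 0 FPKM. Of these 3 markers, only Mrc1 was thus above 0 in the LPS library.

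RefSeq's table (GRCm38.p6, the assembly of mm10) held promoters of only 4 of the 8 measured genes, and all of these are shown. Those of Ccl2, Ccl5, Ccl7 and Cxcl5 were not available. The values of the genes shown took different courses. Cxcl10, on about 7 reads without treatment, had the highest ratio of the measured chemokines for LPS against untreated. That place was lost with 5 rather than 1 added to each value, which gave log2 ratios of 1.98 for Cxcl10, 2.67 for Pf4 and 2.19 for Ccl5. Cxcl13 and Pf4 were higher with both treatments, and Ccl3 was above 0 with apoptotic cells only. Each line gives the 250 bases before the annotated start, 5′ to 3′ on the strand of the gene. Capitals mark matches, on either strand, to the kappaB consensus bound by NF-kB, to GAAA, any 2 bases and GAAA again for the interferon-stimulated response element, to TGANTCA for AP-1 or to TATAAA.
Cxcl10: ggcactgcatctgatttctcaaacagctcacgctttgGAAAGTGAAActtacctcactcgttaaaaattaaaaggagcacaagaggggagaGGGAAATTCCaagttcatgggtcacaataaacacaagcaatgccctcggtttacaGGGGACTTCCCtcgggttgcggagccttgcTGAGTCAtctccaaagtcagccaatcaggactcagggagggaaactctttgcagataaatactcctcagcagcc
Cxcl13: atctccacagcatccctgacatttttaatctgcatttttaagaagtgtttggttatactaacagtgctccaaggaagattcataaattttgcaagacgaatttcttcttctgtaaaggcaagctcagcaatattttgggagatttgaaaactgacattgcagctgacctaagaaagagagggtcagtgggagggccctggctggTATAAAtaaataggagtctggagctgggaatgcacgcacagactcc
Pf4: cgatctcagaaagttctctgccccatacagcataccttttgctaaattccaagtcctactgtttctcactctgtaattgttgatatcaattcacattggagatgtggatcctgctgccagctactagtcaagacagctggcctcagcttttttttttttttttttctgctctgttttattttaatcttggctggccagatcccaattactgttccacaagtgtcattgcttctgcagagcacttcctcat
Ccl3: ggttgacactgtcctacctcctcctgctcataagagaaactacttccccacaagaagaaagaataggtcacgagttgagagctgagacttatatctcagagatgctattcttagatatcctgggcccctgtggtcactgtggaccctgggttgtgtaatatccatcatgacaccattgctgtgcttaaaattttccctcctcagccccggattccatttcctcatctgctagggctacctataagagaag
The Cxcl10 stretch (chr5:92348890-92349139, minus strand) held a kappaB match from -159 to -150 and an overlapping pair at -104 to -94. It also held an interferon-response match from -213 to -204 and an AP-1 match from -74 to -68, counted back from the start. The Cxcl13 stretch (chr5:95956689-95956938, plus strand) held TATAAA from -46 to -41 and no other match. The stretches of Pf4 (chr5:90772185-90772434, plus strand) and Ccl3 (chr11:83649379-83649628, minus strand) held none of these letter strings. Of 32807 promoter windows of the same length, 7.25% held the kappaB consensus, 2.97% the interferon-response string, 6.75% the AP-1 string and 12.4% TATAAA. A match is a description of the sequence, not of binding.

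Across the measured chemokines, apoptotic cells and LPS went with different but overlapping patterns. Ccl5, Ccl7 and Cxcl5 were lowest with apoptotic cells and highest with LPS. Cxcl13 was highest with apoptotic cells, and Pf4 was about as high with apoptotic cells as with LPS. Both Cxcl13 and Pf4 were lowest without treatment. These 5 genes were above 0 in all 3 libraries, and all 8 had a mean of at least 1 FPKM. Of the 24 values, 4 were listed at 0: Ccl2 with LPS, Ccl3 with LPS and without treatment, and Cxcl10 with apoptotic cells.

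**Figure D1:**
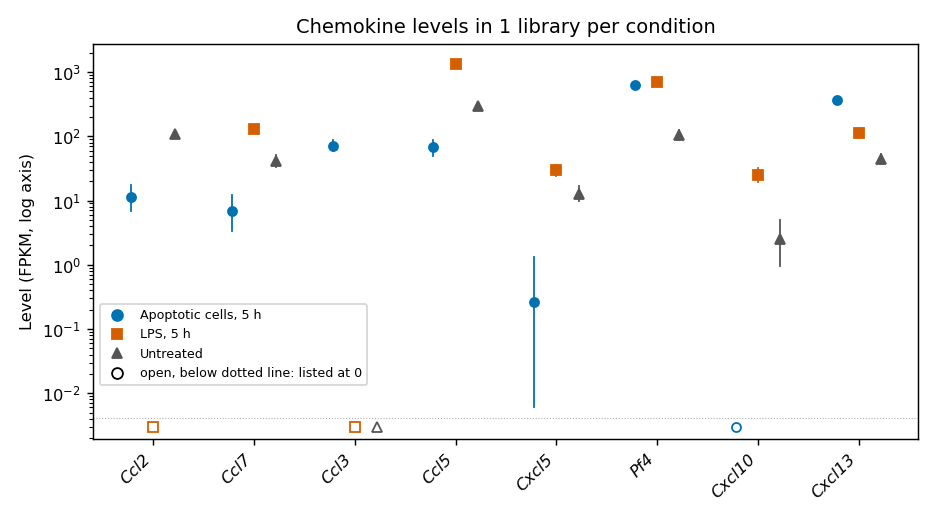
Level of each measured chemokine gene in FPKM on a log axis, 1 symbol per library, with bars for the approximate 95% counting interval and open symbols for values listed at 0. Cxcl5 with apoptotic cells sits at 0.264 FPKM with the widest interval, and the level of Ccl5 with LPS, 1353 FPKM, is the highest shown.

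Ccl2 and Ccl7 encode monocyte chemoattractants that bind the receptor Ccr2. Ccl2 (ENSMUSG00000035385.5, chromosome 11 from 82035571 to 82037453 in mm10, 3 exons) was listed at 11.2 FPKM with apoptotic cells, 0 with LPS and 107 FPKM without treatment. The untreated library was thus far above that with apoptotic cells, on about 19 reads with apoptotic cells and 214 without treatment. Ccl2 was 9.58-fold lower with apoptotic cells than without (counting interval 5.98 to 16.2), or -3.15 as a log2 ratio, which throughout means that of FPKM + 1. Ccl7 (ENSMUSG00000035373.2, 82045712 to 82047525 on chromosome 11, 3 exons), the next chemokine gene after Ccl2 at a distance of 8.26 kb, was listed at 6.88 FPKM with apoptotic cells, 128.9 with LPS and 41.3 without treatment. All 3 libraries were apart beyond counting error. Ccl7 was 6.0-fold lower with apoptotic cells than without (interval 3.18 to 12.5) and 3.12-fold higher with LPS than without (2.42 to 4.07). The Gm17268 gene lies across the whole of Ccl2 on the opposite strand, and since the strandedness of the library is not given in the sources used here, reads of the pair may not be separated.

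Ccl3 and Ccl5 encode ligands of Ccr1 that draw monocytes and T cells. Ccl5 (ENSMUSG00000035042.2, chromosome 11 from 83525778 to 83530518, 3 exons) was listed at 67.2 FPKM with apoptotic cells, 1353 with LPS and 292 without treatment. With LPS it ranked 17 among all genes of the library, against rank 472 with apoptotic cells and rank 78 without treatment. It was 4.34-fold lower with apoptotic cells than without (interval 3.22 to 5.96) and 4.64-fold higher with LPS than without (4.10 to 5.27). Set against LPS directly, Ccl5 with apoptotic cells was 20.1-fold lower (15.2 to 27.2). Ccl3 (ENSMUSG00000000982.5, chromosome 11 from 83647844 to 83649355, 3 exons), which encodes an inflammatory protein of macrophages, was listed at 71.2 FPKM with apoptotic cells, on about 109 reads, and at 0 with LPS and without treatment. No ratio was formed for it, since a listed 0 does not show absence.

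Cxcl5 encodes a neutrophil attractant that acts through Cxcr2. It (ENSMUSG00000029371.7, chromosome 5 from 90759360 to 90761624, 4 exons) was listed at 0.264 FPKM with apoptotic cells, 29.5 with LPS and 12.9 without treatment. The first value stands on about 1 read, against about 120 with LPS and 59 without treatment. Cxcl5 was 48.7-fold lower with apoptotic cells than without, with a counting interval of 8.41 to 1956 that shows how loosely 1 read fixes the size. With LPS it was 2.30-fold higher than without (1.67 to 3.19).

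Cxcl10 encodes an interferon-induced attractant of activated T cells that binds Cxcr3. Cxcl10 (ENSMUSG00000034855.13, chromosome 5 from 92346638 to 92348889, 4 exons) was listed at 0 with apoptotic cells, 24.7 FPKM with LPS and 2.53 FPKM without treatment, on about 67 reads with LPS and 7 without. It was 9.77-fold higher with LPS than without (interval 4.49 to 25.2), at rank 14 of 3421 genes counted from the highest ratio. Its promoter is the one printed above with kappaB and interferon-response matches. The Art3 gene covers Cxcl10 on the opposite strand and was listed at 0 with apoptotic cells, 0 with LPS and 0.632 FPKM without treatment.

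Cxcl13 encodes the attractant that guides B cells through Cxcr5, and in the peritoneum it is a known product of resident macrophages. Cxcl13 (ENSMUSG00000023078.6, chromosome 5 from 95956951 to 95961068, 4 exons) was listed at 364 FPKM with apoptotic cells, 112 with LPS and 44.7 without treatment, on about 1015, 320 and 140 reads. The libraries did not overlap in their counting intervals, and the order put apoptotic cells first. Cxcl13 was 8.15-fold higher with apoptotic cells than without (6.82 to 9.80), at rank 14 of 3369 genes from the highest ratio. It was 2.51-fold higher with LPS than without (2.05 to 3.08). Apoptotic cells set directly against LPS gave a 3.25-fold higher level (2.87 to 3.70).

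Pf4 encodes platelet factor 4, a CXC chemokine of platelets that macrophages also express. Pf4 (ENSMUSG00000029373.7, chromosome 5 from 90772435 to 90773383, 3 exons) was listed at 635 FPKM with apoptotic cells, 702 with LPS and 106 without treatment. It ranked 50 among all genes in both treated libraries and 222 without treatment. Pf4 was 5.99-fold higher with apoptotic cells than without (4.95 to 7.30) and 6.62-fold higher with LPS than without (5.5 to 8.02). Apoptotic cells stood at 0.905 times LPS, with a counting interval of 0.814 to 1.005, which includes equal levels. With apoptotic cells, the effective length of Pf4 is below those used to fit the worth of a read, so this interval is extrapolated. That interval leaves out the choice of scaling: median-of-ratios scaling moved the log2 ratio from -0.14 to -0.55, further from equal levels. Of the 7 platelet and megakaryocyte markers, 6 had a row. They summed to 1.05 FPKM with apoptotic cells, 0.336 with LPS and 2.23 without treatment, with Gp9 and Treml1 at 0 in every library.

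The first comparison set apoptotic cells against no treatment, in a study that asks by its title how the uptake of dying cells turns macrophages towards repair. Ratios could be formed for 6 chemokines. Cxcl13 and Pf4, 2 of the 6, were at least 2-fold higher with apoptotic cells, and Ccl2, Ccl5, Ccl7 and Cxcl5, the other 4, were at least 2-fold lower. The share of all 3369 genes past 2-fold was 12.4% upward and 16.4% downward. With median-of-ratios scaling these shares were 16.0% and 12.7%, and the chemokine counts did not change. The members ranged from -3.46 for Cxcl5 to 3.0 for Cxcl13, with a median log2 ratio of -2.26 beside -0.13 over all genes. With a pseudocount of 5 in place of 1, Cxcl5 had -1.76 and Ccl2 was the lowest at -2.79. None of the 6 lay within 2-fold. Ccl3, listed at 0 without treatment, and Cxcl10, listed at 0 with apoptotic cells, have no ratio here.

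The second comparison set LPS against no treatment, with the same untreated library. Ratios could again be formed for 6 chemokines, and 6 of 6 were at least 2-fold higher with LPS: Ccl5, Ccl7, Cxcl5, Cxcl10, Cxcl13 and Pf4. Ccl2 has no ratio here, and its listed values went the other way, 0 with LPS and 107 FPKM without treatment. Ccl3, listed at 0 in both libraries, has none either. The share of all 3421 genes past 2-fold was 8.51% upward and 26.2% downward. With median-of-ratios scaling those shares over all genes were 18.9% and 13.2%, and the members' count was the same 6. The members' median was 1.91 beside -0.40 over all genes, which is 2.32 relative to all genes. The lowest was Cxcl5 at 1.14, for which a pseudocount of 5 gave 0.95, under 2-fold, and the highest was Cxcl10 at 2.86. The same pseudocount of 5 gave Cxcl10 1.98, below Pf4 at 2.67 and Ccl5 at 2.19.

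The third comparison set apoptotic cells against LPS, libraries that share the 5 h of treatment. Of the 5 chemokines with a ratio, 1 was at least 2-fold higher with apoptotic cells, Cxcl13 (log2 ratio 1.69), and 3 were lower, Ccl5 (-4.31), Ccl7 (-4.04) and Cxcl5 (-4.59). Pf4 lay within 2-fold at -0.14. Ccl2 and Ccl3, listed at 0 with LPS, and Cxcl10, listed at 0 with apoptotic cells, have no ratio here. The share of all 4599 genes past 2-fold was 15.7% upward and 5.54% downward. With median-of-ratios scaling these shares were 9.11% and 9.63%, and the members' counts did not change. From the lowest ratio, Cxcl5 ranked 8, Ccl5 13 and Ccl7 19. The place of Cxcl5, on about 1 read with apoptotic cells, depends on the pseudocount. A pseudocount of 5 gave it -2.71, beside -4.23 for Ccl5 and -3.49 for Ccl7.

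**Figure D2:**
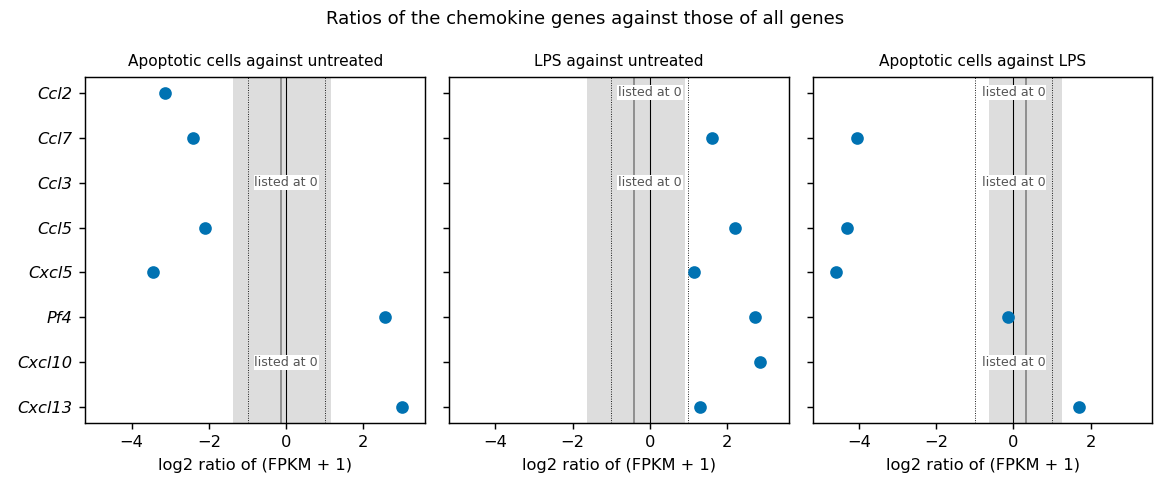
Log2 ratio of (FPKM + 1) for each chemokine gene in the 3 comparisons; the grey band runs from the 10th to the 90th percentile of all genes, the grey line their median, and dotted lines mark 2-fold. All 6 points of LPS against untreated lie to the right of 2-fold, whereas apoptotic cells against untreated has points on both sides, from -3.46 to 3.0.

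The make-up of chemokine RNA differed between the libraries. All 8 measured genes summed to 1156 FPKM with apoptotic cells, 2350 with LPS and 606 without treatment, with listed 0 values entering as 0. Ccl2, Ccl3 and Cxcl10 were left out of the shares because each had a listed 0. Of these, Ccl3 stood at 71.2 FPKM with apoptotic cells, beside 67.2 FPKM for Ccl5, and Ccl2 at 107 FPKM without treatment, beside 106 FPKM for Pf4. Over the 5 members above 0 everywhere, the sum was 1073 FPKM with apoptotic cells, 2326 with LPS and 497 without treatment. With apoptotic cells, Pf4 made up 59.2% of that sum and Cxcl13 33.9%, while Ccl5 made up 6.26%. With LPS, Ccl5 made up 58.2%, Pf4 30.2% and Cxcl13 4.81%. Without treatment Ccl5 also led these 5 with 58.7%, followed by Pf4 with 21.4% and Cxcl13 with 9.0%. Ccl7 made up 0.641% with apoptotic cells, 5.54% with LPS and 8.32% without treatment, and Cxcl5 0.0246%, 1.27% and 2.59%. The sum was thus higher in both treated libraries than without treatment, and of these 5 genes Ccl5 had the highest share with LPS and without treatment.

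Except for Cxcl13, which stands alone, the genes lie in chromosomal clusters with other chemokine genes. Ccl2 and Ccl7 open a run of 6 chemokine genes over 270 kb of chromosome 11. The others of that run were at or near 0: Ccl11, Ccl12 and Ccl1 were listed at 0 in every library and Ccl8 at 0.984 FPKM with apoptotic cells, 1.00 with LPS and 0 without treatment. Ccl5 and Ccl3 flank Ccl9 and Ccl6 in a run of 139 kb. Ccl9 was listed at 58.7 FPKM and Ccl6 at 31.9 FPKM without treatment, and both at 0 with apoptotic cells and with LPS. On chromosome 5, Ppbp, another platelet chemokine gene, lies between Cxcl5 and Pf4, 2.37 kb before Pf4. Ppbp was listed at 0.789 FPKM with apoptotic cells, 0 with LPS and 1.49 FPKM without treatment, far under Pf4 in the libraries where it was above 0. Cxcl1, a neutrophil attractant gene of the same run, stood at 8.34 FPKM with apoptotic cells, the other libraries listing 0. Cxcl9, which like Cxcl10 answers interferon and binds Cxcr3, was listed at 0.119 FPKM with apoptotic cells, 0.366 with LPS and 0 without treatment, and Cxcl11 at 0 throughout.

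**Figure D3:**
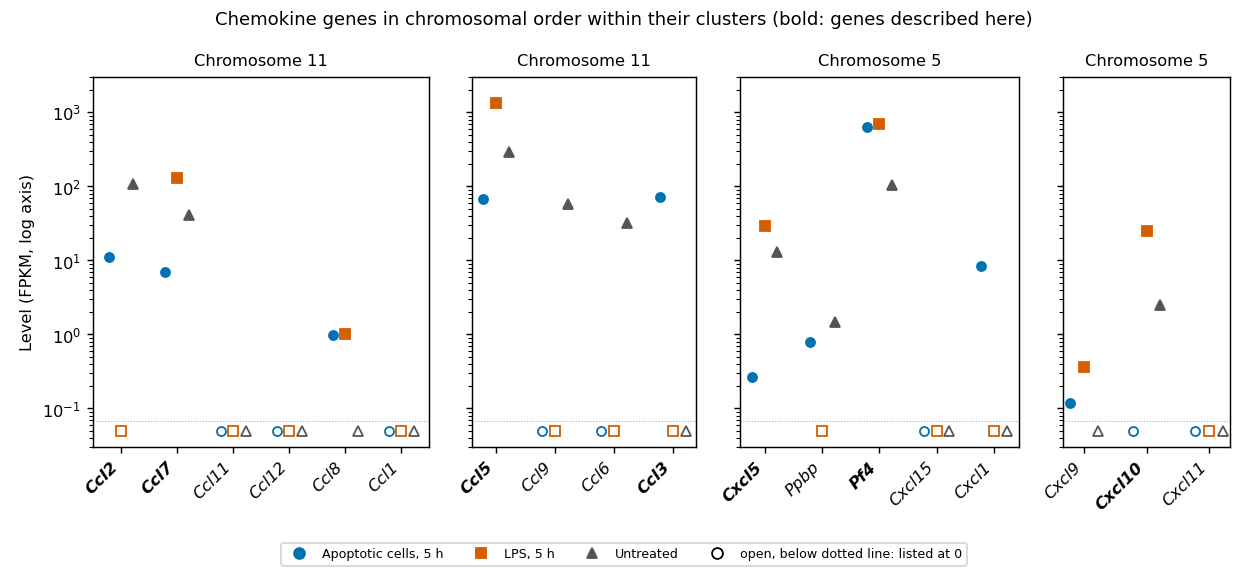
Levels in FPKM, on a log axis, for chemokine genes of 4 chromosomal clusters, in their order along the chromosome, with open symbols for values listed at 0. Pf4 with apoptotic cells, at 635 FPKM, stands far above its neighbour Ppbp at 0.789 FPKM, and Ccl5 without treatment, at 292 FPKM, above its neighbour Ccl9 at 58.7 FPKM.

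Other chemokine ligand genes were mostly low or listed at 0. Of 16 other CC ligand genes 13 had a row, and 6 were listed at 0 in every library. Only Ccl22 of these 13 could be given a ratio. Ccl22, which attracts regulatory T cells through Ccr4, was listed at 3.11 FPKM with apoptotic cells, 41.8 with LPS and 20.7 without treatment, the order seen for Ccl5, Ccl7 and Cxcl5. Its log2 ratios were -2.40 for apoptotic cells against untreated, 0.98 for LPS against untreated and -3.38 for apoptotic cells against LPS. Of 12 other CXC, XC and CX3C ligand genes 11 had a row and 3 were at 0 in every library. Cxcl14 was listed at 20.9 FPKM with apoptotic cells, 3.67 with LPS and 1.90 without treatment, the order seen for Cxcl13, with a log2 ratio of 2.92 for apoptotic cells against untreated and 2.23 against LPS. Cxcl12, the stromal attractant of leukocytes, was listed at 0.863, 0.536 and 2.15 FPKM. Cxcl16 was listed at 31.4 FPKM without treatment and at 0 in the treated libraries.

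Of 18 chemokine receptor genes 16 had a row, and 3 were at 0 in every library. With apoptotic cells against no treatment, 2 receptor genes had a ratio and both were at least 2-fold lower, and with LPS against no treatment 1 had a ratio, Ccr1, which lay within 2-fold (-0.63). Ccr1, which binds the products of Ccl3 and Ccl5, was listed at 0 with apoptotic cells, 21.8 FPKM with LPS and 34.1 without treatment. Ccr2, a receptor of the Ccl2 and Ccl7 products, was listed at 0.0984 FPKM with LPS and at 0 in the other libraries. Cxcr2 stood at 0.108 FPKM with apoptotic cells, with 0 listed otherwise, and Cxcr3 at 0 with apoptotic cells, 0.265 FPKM with LPS and 0.247 without treatment. Ccr2, Cxcr2 and Cxcr3 were thus listed under 1 FPKM in every library.

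Cxcr5, the receptor of the Cxcl13 product, ran opposite to its ligand between the libraries with apoptotic cells and without. It was listed at 12.1 FPKM with apoptotic cells, 0 with LPS and 213.5 FPKM without treatment, a log2 ratio of -4.03 for apoptotic cells against untreated. Cxcr5 is a gene of B cells. Ccr7, which guides lymphocytes and dendritic cells to lymph nodes, was listed at 24.0 FPKM with apoptotic cells, 54.4 with LPS and 0 without treatment (log2 ratio -1.15 for apoptotic cells against LPS). Ccr9, a receptor of thymocytes, was listed at 11.4 FPKM with apoptotic cells, 0.603 with LPS and 0 without treatment (2.95). Cxcr6, the receptor of the Cxcl16 product, was listed at 0.740, 0 and 3.22 FPKM (-1.28 for apoptotic cells against untreated). Of 5 atypical receptors and decoys 4 had a row, and none reached 1 FPKM in any library.

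**Figure D4:**
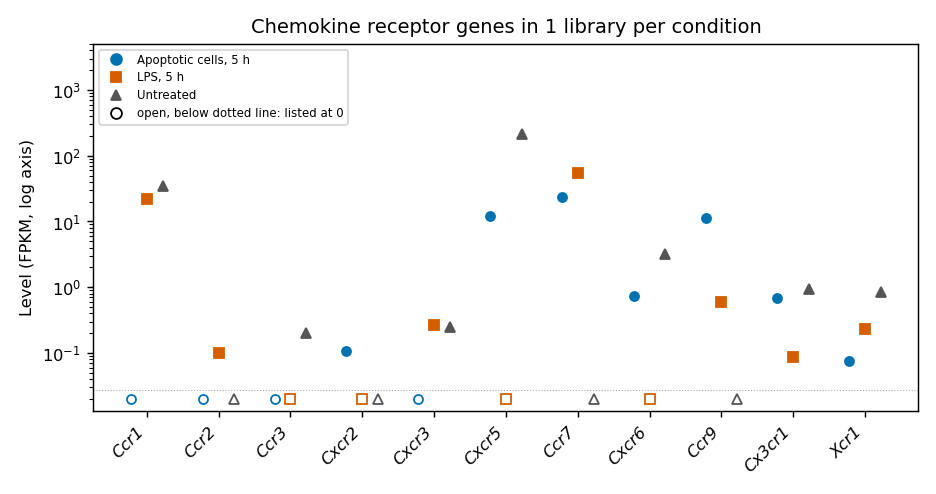
Levels of 11 chemokine receptor genes in FPKM on a log axis, 1 symbol per library, with open symbols for values listed at 0. Cxcr5 without treatment, at 213.5 FPKM, is the highest point, and Ccr2, Ccr3, Cxcr2 and Cxcr3 stay under 1 FPKM.

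Proteases that trim chemokines and regulators of their transcripts went several ways. Of 5 protease genes with a row, 3 could be compared with the untreated library in each treatment: 2 were at least 2-fold higher with apoptotic cells, and with LPS 1 was higher and 1 lower. Mmp8, the neutrophil collagenase, was listed at 16.0 FPKM with apoptotic cells, 0.548 with LPS and 2.48 without treatment. Mmp9, the gelatinase, was listed at 5.73, 7.22 and 2.15 FPKM, and Mmp12, the macrophage elastase, at 32.7, 24.1 and 25.7 FPKM. Of 25 genes of transcriptional and mRNA control 17 had a row. For apoptotic cells against untreated 2 of 6 were at least 2-fold higher, Fos (1.66) and Irf7 (1.21), and 1 was lower, Nfkbia (-1.81), the inhibitor of NF-kB. For LPS against untreated 0 of 5 were higher and 2 lower, Zfp36l1 (-2.77) and Zfp36l2 (-1.18), whose products speed mRNA decay. Genes listed at 0 in either library have no ratio and went both ways. With LPS, Junb was listed at 197 FPKM, Nfkbie at 32.2, Nfkbiz at 30.3, Irf8 at 11.9, Irf9 at 9.21 and Stat2 at 3.90. All of these were at 0 without treatment. Cebpb was listed at 89.3 FPKM, Nfkbia at 85.8, Nfkbib at 33.9 and Irf7 at 7.83 without treatment, and all at 0 with LPS. For apoptotic cells against LPS 2 of 9 were higher, Fos (2.05) and Zfp36l2 (1.62), and 2 lower, Nfkbiz (-4.22) and Junb (-1.84). Over all genes, the shares past 2-fold upward and downward were 12.4% and 16.4% for apoptotic cells against untreated. They were 8.51% and 26.2% for LPS against untreated, and 15.7% and 5.54% for apoptotic cells against LPS. Zfp36, which encodes the mRNA-decay protein tristetraprolin, was listed at 261 FPKM with apoptotic cells, 155 with LPS and 0 without treatment. Rela, the NF-kB subunit gene, was listed at 26.8, 53.8 and 37.1 FPKM, with log2 ratios of FPKM + 1 within 2-fold in all 3 comparisons, the widest being -0.98 for apoptotic cells against LPS.

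Short-lived inflammatory transcripts often carry AU-rich elements, whose core is ATTTA, in the 3′ UTR. In the RefSeq-matched GENCODE M21 transcripts, Ccl3 held 5 such pentamers in 409 bases and Cxcl5 5 in 1111 bases. Ccl7, Cxcl10 and Cxcl13 each held 2, Ccl2 and Pf4 1, and Ccl5 0. Per kilobase this is 12.2 for Ccl3, 4.60 for Ccl7, 4.50 for Cxcl5, 3.64 for Ccl2, 2.74 for Cxcl10 and 2.50 for Cxcl13. Over 12477 measured genes with at least 200 bases of 3′ UTR the median was 1.42 per kilobase and the 90th percentile was 4.17. The UTRs of Ccl5 (199 bases) and Pf4 (123 bases) are shorter than that. The members that were lower with apoptotic cells than without, Ccl2, Ccl5, Ccl7 and Cxcl5, spanned 0 to 4.60 per kilobase, and those that were higher, Cxcl13 and Pf4, had 2.50 and 8.13.

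Among 2886 other genes above 0 in all 3 libraries, those closest to each member were found by the distance between log2(FPKM + 1) values centred on the gene's own mean, over 3 libraries only. Nearest to Ccl5 were Socs3 (distance 0.14), at 10.2 FPKM with apoptotic cells, 225 with LPS and 42.0 without treatment, and Adora2b (0.21). Nearest to Ccl7 were Gbp5 (0.10) and Sdc4 (0.26), and nearest to Cxcl5 were Sdc4 (0.53) and Phlda1 (0.67). Nearest to Cxcl13 were Bcam (0.11), at 24.1, 7.57 and 2.43 FPKM, and Spp1 (0.16). Nearest to Pf4 were Saa1 (0.35), at 22.9, 18.9 and 1.95 FPKM, and Vnn3 (0.37). With 3 libraries many genes share any given order.

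Markers of other peritoneal cells also differed between these libraries, and their part in the chemokine levels was not tested. In such bulk samples, fewer cells of a type and less RNA per cell cannot be told apart. The 6 mast cell markers with a row summed to 13.8 FPKM with apoptotic cells, 10.2 with LPS and 93.0 without treatment. Mesothelial and fibroblast markers summed to 1.83, 1.13 and 22.9 FPKM in the same order, and dendritic cell markers to 2.23, 2.87 and 7.65 FPKM. The sums of these lists were lower in both treated libraries than without treatment. Most of the dendritic cell sum without treatment was Kmo, at 5.45 FPKM. Cd209a of the same list went the other way, at 2.02 FPKM with apoptotic cells, 1.83 with LPS and 0 without treatment. B cell markers summed to 154, 89.4 and 86.1 FPKM, but only 2 of the 6 were above 0 without treatment, and a listed 0 enters a sum as 0. Those 2, Blnk (log2 ratio -1.09) and Cr2 (-2.02), were both at least 2-fold lower with apoptotic cells than without. Listed values of other genes of that list went the other way, with no ratio to the untreated library. Cd79b was listed at 85.6 FPKM with apoptotic cells, 19.1 with LPS and 0 without treatment. Ms4a1 was at 28.9, 15.9 and 0 FPKM, Pax5 at 1.47, 2.12 and 0, and Cd79a at 0, 33.6 and 0. T cell and thymocyte markers summed to 87.4, 1.95 and 29.6 FPKM, with Rag1 at 41.2 FPKM with apoptotic cells, 0.679 with LPS and 0 without treatment. Of that list, the 3 genes with a ratio for apoptotic cells against untreated lay within 2-fold: Dntt (-0.04), Cd3g (-0.23) and Cd4 (-0.68). Neutrophil markers summed to 121, 224 and 52.2 FPKM, most of it S100a8, while Elane and Retnlg were at 0 in every library. Eosinophil markers stayed under 1 FPKM in sum, and NK cell markers summed to 1.97, 0 and 0.838 FPKM.

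**Figure D5:**
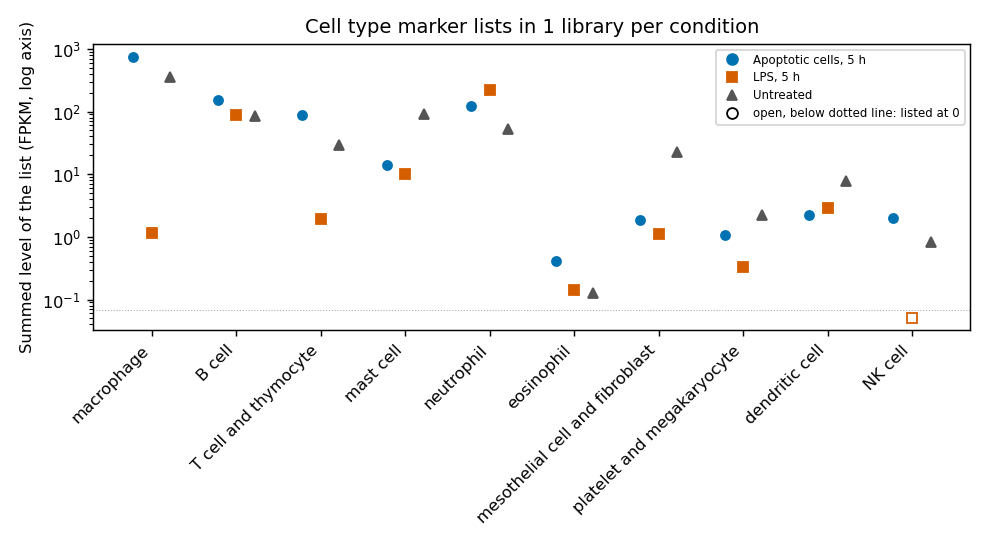
Summed FPKM of each cell type marker list on a log axis, 1 symbol per library. The mast cell sum is 13.8 FPKM with apoptotic cells and 10.2 with LPS, against 93.0 without treatment, and the platelet sum stays under 3 FPKM in all 3 libraries.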

How the data were processed

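The deposited tables give 1 value per gene symbol and library, 1 library per condition. The values were taken as FPKM made by the authors: the unit is not written in the labels, but per the submitters' processing notes reads were handled with Cufflinks 2.2.1 and Cuffdiff after TopHat2 2.1.0 and cutadapt, on build mm10, and the steps between low values depend on transcript length. No option, annotation or strand setting is given in the sources used here. From the deposited FPKM, log2((FPKM + 1) / (FPKM + 1)) was computed where both libraries were above 0 and the gene averaged 1 FPKM or more over the 3 libraries, and genes past 2-fold on this scale were counted by direction.

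The worth of 1 read was fitted on low genes with 1 annotated transcript in GENCODE M21. It was 0.305, 0.35 and 0.295 FPKM on 1 kb of effective length with apoptotic cells, with LPS and without treatment. Effective length is the transcript length after taking 300, 150 and 225 bases off, in the same order. The fit is loose, and transcripts of these chemokines are short, from 532 to 1575 bases, so the reads are approximate. The fit used effective lengths above 300 bases only, and with apoptotic cells Pf4 and Ccl5 fall below that. Intervals are exact 95% Poisson intervals for levels and binomial (Clopper-Pearson) intervals for folds of FPKM. Steps were tested on simulated data.

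The 10 genes and all lists were chosen with earlier results of these data known. Beside the 10, the rule named the genes of highest level or ratio in each list and, for each member, the 2 genes of closest pattern. Receptors of the members' products, cluster neighbours, marker genes and genes named for a listed 0 fall outside this rule and were chosen after their values were seen. Some genes of these lists are not reported here. Older symbols were matched through RefSeq's synonyms. Python 3.11.15, numpy 2.4.6, pandas 2.3.3 and scipy 1.17.1 were used. Alternatives were other pseudocounts, filters, fold thresholds and scalings, a listed 0 taken as a value and, added after the data were seen, genes above 0 in all 3 libraries.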

Additional observations from a re-analysis of the deposited data

How the results depend on the processing

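No paired analysis was possible because each condition has 1 library and no test was run; for the same reason no replicate could be left out. Every member with a ratio kept its direction under pseudocounts of 0.1 and 5, the 3 rescalings and a listed 0 taken as a value. So did the 5 members above 0 in all 3 libraries when only such genes were kept, a setting under which Ccl2 and Cxcl10 have no value. Median-of-ratios scaling moved the median log2 ratio of all genes from -0.13 to 0.04 for apoptotic cells against untreated, from -0.40 to 0.10 for LPS against untreated and from 0.32 to -0.01 for apoptotic cells against LPS. With a listed 0 taken as a value, 1 member (Ccl2) was at least 2-fold lower for LPS against untreated, where 0 were without it. For apoptotic cells against LPS, 7 members were then at least 2-fold different and 3 higher, against 4 and 1, with a median of -2.09 in place of -4.04. That median was -2.71 with a pseudocount of 5 and -4.44 with median-of-ratios scaling. The same scaling gave Pf4 -0.55 in place of -0.14 and Cxcl13 1.29 in place of 1.69. At a 4-fold threshold 3 members differed for LPS against untreated, 3 of them higher, and 0 were higher for apoptotic cells against LPS. All other counts of the members were within 1.5 times those reported, and the median for LPS against untreated was 2.53 with median-of-ratios scaling in place of 1.91, where Ccl5 had 2.83, Ccl7 2.23, Cxcl5 1.73, Cxcl13 1.92 and Pf4 3.34. Depth limits Cxcl5 with apoptotic cells, on about 1 read, and Cxcl10 without treatment, on about 7 reads.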
